A study of Rattus norvegicus with 21 samples.

Results

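Single rat hippocampal GABAergic neurons from glia-free (purified) cultures were set against GABAergic neurons grown with glia, across every gene with a symbol. The comparison rests on 11 of the 21 sequenced neurons of the series: 5 purified and 6 glia-cultured cells, chosen by their labels. All 11 came from Wistar rats at embryonic day 18 that carried Venus as a reporter of the vesicular GABA transporter gene, and all had been 17 days in vitro. The purified cultures had received the antimitotic agents FdU and U at 5 µM from 24 h after dissection, for 36 h. The glia-cultured cells come from cultures labelled as holding glial cells. Loss of glia and exposure to the antimitotic agents cannot be told apart, since both mark the purified group. Title letters are uneven as well: 4 purified cells are titled S and 1 P, and glia-cultured cells 1 S, 3 P and 2 ech. Title letter and culture thus cannot be fully told apart. The remaining purified group, 5 cells that received oligodendrocyte-conditioned medium (OCM) starting on day 3, is cited in a few places. Each sample is the content of 1 neuron, aspirated through the patch electrode after recording. The labels name no animal or culture, so each group counts as 1 sample: there is no p-value here, and an SD or range is the spread from cell to cell within a group whose cells may share a dish. Cells are named by number within their group.

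GABAergic interneurons make the transmitter GABA from glutamate and inhibit the principal cells of the hippocampus, often by firing at high rates. Glia supply neurons in culture with lipids, trophic factors and signals that promote synapse formation and the clustering of sodium channels on axons. Among the genes by which such neurons are recognised are Gad1 and Gad2, which make GABA, Slc32a1, its vesicular transporter, Snap25, a protein of vesicle fusion, Scn1a, the sodium channel Nav1.1 of fast interneurons, and Reln, an extracellular protein of some interneuron classes.

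Gad2 and Slc32a1 were above 0 in all 11 cells, and Slc17a7 and Slc17a6, the glutamate transporters of excitatory neurons, were at 0 in all 11. Of the 12 genes listed for glutamatergic identity 5 were at 0 in all 11 cells. The summed level of this list was 404, 849 and 176 in glia-cultured cells 3, 4 and 5, and at most 6.88 in the other 8 cells. Its 2 measured members were both lower in purified cells. Gad1 was at 0 in purified cell 4, which had 14087 for Gad2 and 390.4 for Slc32a1. Of the microglial markers 11 of 14 in the table were at 0 in all 11 cells, and their summed level was highest in purified cell 2, at 106. Of the oligodendrocyte markers 8 of 13 were at 0 in all 11, Sox10, Mog and Mag among them. Mbp, a myelin protein, was above 0 only in glia-cultured cells 3 and 5, at 959 and 609. Cnp, an enzyme of myelinating cells, was highest in purified cell 2, at 857, with 487 in glia-cultured cell 1. Summed oligodendrocyte markers ran from 0 to 857 in purified and from 0 to 1352 in glia-cultured cells. Some astrocyte markers were at or near 0: Slc1a2 in all 11 cells, Gfap in all but glia-cultured cell 4, at 12.3, and Aqp4 in all but glia-cultured cell 3, at 2.49. The list as a whole was not: 6 of its 7 measured members were lower in purified cells and 0 higher, against 64.4% lower among all measured genes. Glia-cultured cells 1 to 6 had reads of 3, 2, 7, 6, 8 and 3 of its members. Purified cells 1 to 5 had reads of 4, 1, 4, 0 and 1. The summed level of the 12 astrocyte markers in the table ran, with glia, from 1338 to 15332 against 0 to 7698. Most of it was Clu, a secreted chaperone, at 1169.9 to 13511 (median 9736) in glia-cultured cells and 2412, 0, 6536, 0 and 2622 in purified cells 1 to 5. The part of glial RNA in the results was not tested beyond leaving out glia-cultured cells 3 and 5, whose values are given where they matter.

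Depth differed between the groups. Recovered reads ran from 2442814 to 7821375 per purified cell and from 5587208 to 25160911 per glia-cultured cell. The values analysed are the authors' normalized values per gene, in which 1 read was worth 0.303 to 2.74 units depending on the cell. They are not scaled to gene length, so levels are compared between cells and not between genes. Purified cells had 2231 to 3572 gene symbols above 0 and glia-cultured cells 3321 to 7587. After every cell was thinned to 2442814 reads the ranges were 2223 to 3417 and 3219 to 7378. At full depth glia-cultured cells 3, 4 and 5, titled P, had 5382, 5291 and 7587, and the others 3321 to 4122. Purified cell 5, also titled P, had 2398. The thinned reads include rows without a gene symbol, which held 19.97% to 30.1% of the values in purified cells and 11.7% to 22.4% in glia-cultured cells, so depth over named genes was not equal. The part of that difference in the gap was not tested.

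**Figure D1:**
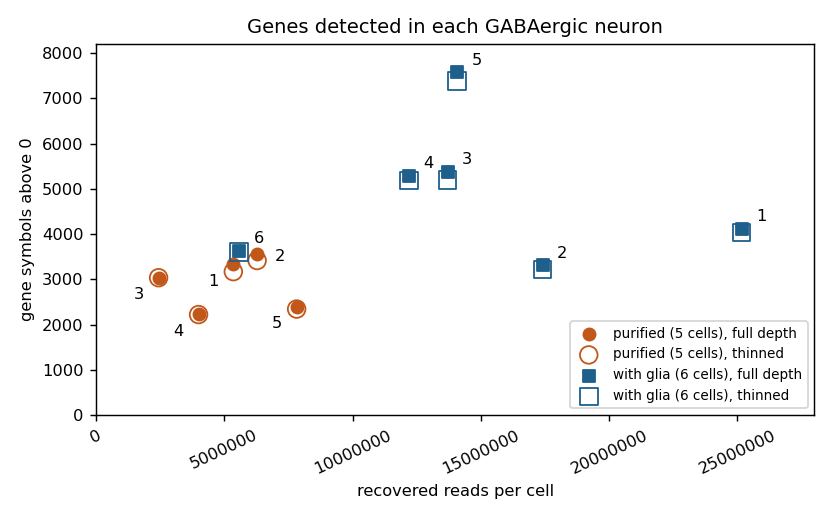
Gene symbols above 0 (vertical axis) against recovered reads per cell (horizontal axis) for each of the 5 purified (orange circles) and 6 glia-cultured (blue squares) GABAergic neurons, numbered by cell; open symbols show the count after thinning to 2442814 reads. All glia-cultured cells but number 2 lie above the highest purified cell, and thinning lowers each count only slightly.

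Genes were detected in fewer purified than glia-cultured cells, and over the cells with a read the levels differed in both directions. For each gene the difference is the mean of log2(value + 1) over the purified cells minus that over the glia-cultured cells. Of 16245 symbols, 6302 were above 0 in at least 3 of the 11 cells and are called measured genes. Their median difference was -2.13, with quartiles of -4.09 and -0.35. A measured gene had a read in a mean of 42.1% of purified cells and 67.6% of glia-cultured cells. There were 880 measured genes at 0 in all purified cells and 7 at 0 in all glia-cultured cells. The 880 passed the detection rule through glia-cultured cells alone, so their difference can only be below 0, and the 7 the reverse. The shares that follow include both. By the 2-fold rule, a difference of at least 1 on the log2 scale, 4061 measured genes (64.4%) were lower in purified cells and 692 (10.98%) were higher. Of the 4061 lower genes, 3956 (97.4%) had a read in a smaller share of purified than of glia-cultured cells. Every purified cell lay below every glia-cultured cell for 95 genes (1.51%) and above for 10 (0.159%).

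The 541 genes above 0 in all 11 cells gave another picture. Their median difference was -0.18, with quartiles of -0.73 and 0.41. Among them 78 (14.4%) were at least 2-fold lower and 43 (7.95%) at least 2-fold higher, and 11 (2.03%) and 6 (1.11%) did not overlap between the groups. Where the mean was taken only over cells with a read, for 2074 genes with a read in at least 3 cells of each group, the median difference was 0.09. Of these genes 19.05% were then lower past 2-fold and 20.1% higher, in a set that leaves out genes rarely read in 1 of the groups. For most genes a low mean thus means a cell without a read, and whether that reflects fewer transcripts or their loss in sampling was not tested. Shares of genes are therefore read below against 64.4% and 10.98%, and genes seen in every cell against 14.4% and 7.95%.

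**Figure D2:**
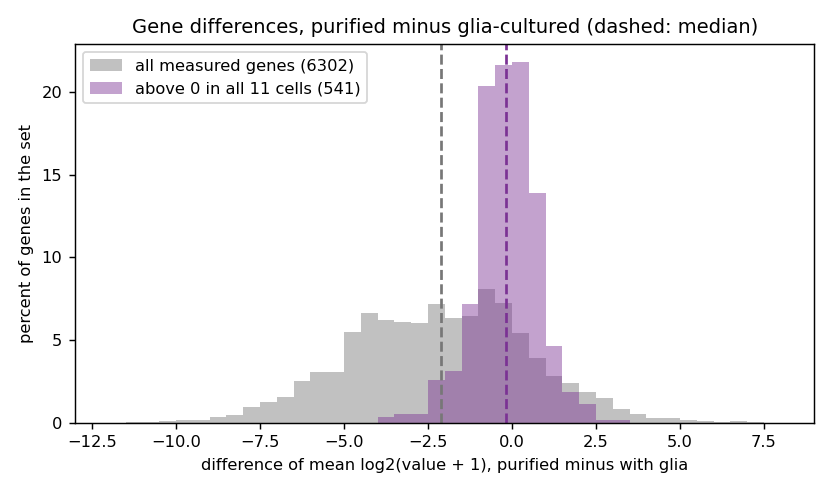
Distribution of the gene differences (horizontal axis, mean log2(value + 1) of purified minus glia-cultured cells; vertical axis, percent of the genes in each set) for all 6302 measured genes (grey) and the 541 genes above 0 in all 11 cells (purple), with dashed medians. The grey distribution is centred at -2.13 and the purple one at -0.18.

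Among the genes read in every cell, those with the widest gap on the low side belonged to vesicle fusion and traffic, the lysosome, glycolysis and neuronal signalling. Because genes were ranked by the gap between the groups, the gap itself is a description. Snap25 (chr3:129697408-129788416, rn6), the membrane anchor of the fusion complex at the synapse, was at 6339.95, 7111, 11775, 14639 and 9119 in purified cells 1 to 5 and 26926 to 44072 (median 31736) in the 6 glia-cultured cells. Its means were 9797 ± 3427 (SD, n = 5 cells) and 32974 ± 6442 (SD, n = 6 cells), a ratio of 3.37. The highest purified cell, number 4, reached about 54.4% of the lowest glia-cultured cell. Rab6a (chr1:165625031-165664201), a small GTPase of Golgi traffic, stood at 7922, 4579, 13170.3, 10635 and 3852 against 18224 to 42574 (median 36927), with a ratio of means of 4.03. Both genes were high in every cell, and neither group had a cell inside the range of the other.

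Psap (chr20:29831314-29856875), the precursor of the lysosomal saposins, was at 382, 1253, 16.4, 1202 and 1444 in the purified cells and 2736 to 5564 (median 3929.9) in the glia-cultured ones. Purified cell 3 was far lower than the other purified cells, and all 5 lay under the lowest glia-cultured cell. Eno2 (chr4:157285193-157294037), the neuronal enolase of glycolysis, was at 2597, 2875, 831, 1182 and 2992 against 3377 to 14789 (median 9874), a ratio of means of 4.60. Its lowest glia-cultured cell, number 6, lay close to the highest purified cell, number 5. Ndrg4 (chr19:9766439-9801942), a cytoplasmic protein abundant in neurons, was at 2753, 3305, 2166, 4389 and 671 against 5634 to 11475 (median 8909). Cx3cl1 (chr19:10644270-10653762), the neuronal chemokine fractalkine that microglia sense, was at 81.6, 1748, 1787, 1156 and 1343 against 1980.1 to 8054 (median 3446). Prkar1b, a regulatory subunit of protein kinase A, and Sncb, β-synuclein, differed less, with mean ratios of 2.43 and 2.07. For Sncb the groups nearly met, with a highest purified cell at 10136 and a lowest glia-cultured cell at 10736.

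Genes read in every cell and higher in all purified cells numbered 6, and they had varied roles. Tuba1a (chr7:140637280-140640988), an α-tubulin of growing neurites, was at 98503, 142037, 68869.8, 99779 and 63305 in purified cells and 25716 to 53524 (median 34282) in glia-cultured ones. Its means were 94499 ± 31359 (SD, n = 5 cells) and 38043 ± 10812 (SD, n = 6 cells), a ratio of 2.48. Reads of Tuba1a can be shared with near-identical α-tubulin genes, so its split from Tuba1b is uncertain; Tuba1b itself had a difference of -0.31 and overlapped. Nme2 (chr10:81648211-81653717), a nucleoside diphosphate kinase, was at 5070.5, 2273, 3857, 7038 and 4121 against 297 to 1962 (median 1464). Mgst3 (chr13:85601499-85622344), a microsomal glutathione transferase, was at 8036, 4596, 5826, 4381 and 9126 against 1569 to 3896 (median 2956). For Mgst3 the gap was narrow, as glia-cultured cell 2 reached 3896 and purified cell 4 was at 4381. Lsm4 (chr16:20506399-20511818), a core protein of RNA processing complexes, was at 811, 779.8, 1346, 1515 and 1429.8 against 231 to 577 (median 387), with means in a ratio of 2.99. RGD1560394 (chr14:82053685-82055290), named Nicol1 in current rat gene tables, was at 2381, 1550.2, 2579.8, 1484 and 2932 against 178 to 932 (median 635). Abcc3, an efflux transporter, also met the rule but reached at most 90.5 units in any cell. Scaling every cell to one total moved the median of the genes read in all cells by 0.27 on the log2 scale. Scaling to one upper quartile moved it by -0.60 and left 0 genes with every purified cell above, so the separation of these 6 and of the 4 further genes given below depends on the scaling.

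**Figure D3:**
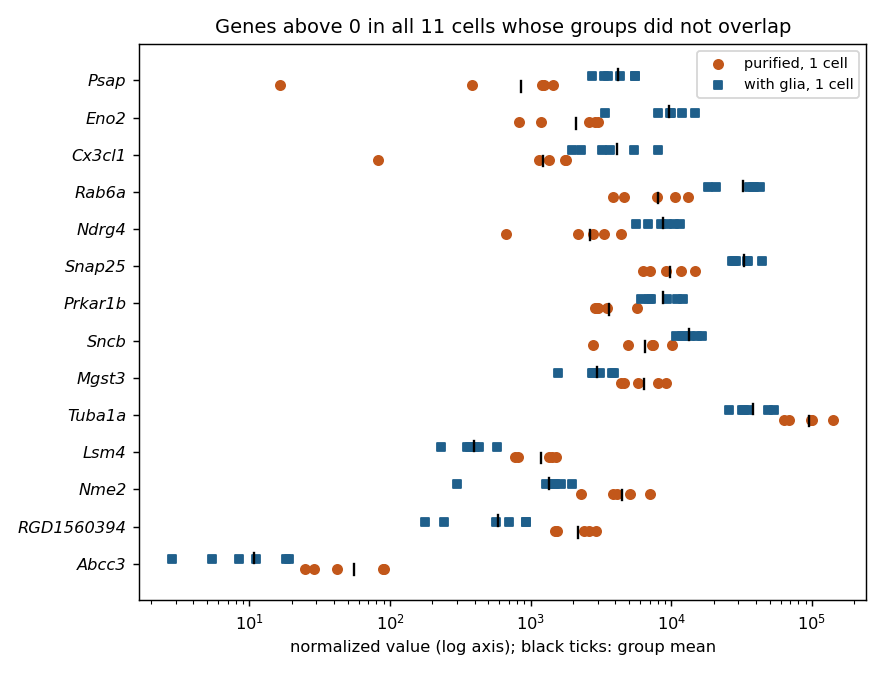
Normalized value in each cell (horizontal log axis) for the 8 genes with the widest gap on the low side and the 6 on the high side, among genes above 0 in all 11 cells; orange circles are purified and blue squares glia-cultured cells, and black ticks are group means. In the upper 8 rows every circle lies left of every square, and in the lower 6 rows every circle lies right.

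Over all measured genes the widest gaps on the low side were genes at 0 in every purified cell and read in every glia-cultured cell. There were 33 such genes among 6302 measured and 0 with the reverse pattern. They are part of the 880 measured genes at 0 in all purified cells, against 7 at 0 in all glia-cultured cells. The 33 passed the detection rule through glia-cultured cells alone. The 12 with the widest gap included several proteins of membrane traffic, a class whose share among all measured genes was not computed. Tmed7 (chr18:40579182-40586260), a cargo receptor between endoplasmic reticulum and Golgi, was at 1079 to 4884 (median 1921) in glia-cultured cells. Madd (chr3:79960301-80003026), an exchange factor for the synaptic vesicle GTPase Rab3, was at 1059 to 4572 (median 2156). Atl1 (chr6:92229785-92370427), atlastin, which fuses tubules of the endoplasmic reticulum in axons, was at 844 to 3032 (median 1551). A count of 0 over the 5 purified cells allows up to 3 reads in all, so the mean normalized value of Madd was at least 2464-fold higher with glia. That bound covers counting error of reads only and is no bound on transcripts, whose loss in sampling was not tested. Tmf1 and Rab30, both of the Golgi, were at 531 to 2066 (median 1239) and 428 to 3477 (median 1179.8) in glia-cultured cells. Pak1, a kinase that acts on the actin cytoskeleton of spines and growth cones, was at 744 to 6834 (median 1426). Kcnab1, a β subunit of Kv1 potassium channels, was at 596 to 1273 (median 902), and Slc6a15, a transporter of branched amino acids, at 251 to 1464 (median 738). Nrbf2 of autophagy, Casc3 of the exon junction complex, Mrps12 of the mitochondrial ribosome and Adss, an enzyme of AMP synthesis, completed the 12, with lowest glia-cultured cells of 446, 228, 388 and 277. The OCM-treated cells, which also lacked glia, were not at 0 throughout: of their 5 cells, 5 had reads of Tmed7, 4 of Pak1, 3 of Madd and 2 of Atl1.

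On the high side 10 genes had every purified cell above every glia-cultured cell, 6 of them described above, and 0 did with scaling to one upper quartile. Of the other 4, Cyp51, a sterol demethylase, was at 2522, 3351, 8463, 5119 and 1206 in purified cells and 0 to 1011 (median 106) in glia-cultured ones, 3 of which were at 0. Hn1, now named Jpt1, a protein that binds microtubules, was at 5968, 3475, 3139, 11696 and 1768 against 0 to 1523 (median 1070.3). Mrps21, of the mitochondrial ribosome, was at 815, 1558, 1091, 1290.00 and 1088 against 0 to 667 (median 283). Polr2e, a subunit shared by the RNA polymerases, was at 1447, 698, 679.9, 972 and 1767 against 0 to 656 (median 279). Unlike the low-side genes above that were at 0 in every purified cell, these 4 were each read in some cells of the lower group, the glia-cultured one.

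GABAergic identity genes differed in part. Of the 9 measured genes of this list 5 were lower, 0 higher and 4 within 2-fold, against 64.4% lower and 10.98% higher among all measured genes. Their median difference was -2.12 against -2.13 over all measured genes. Gad1 was at 2929.6, 1636, 2574, 0 and 2725 in purified cells and 6011 to 19503 (median 17419) in glia-cultured ones, so that every purified cell lay below. Over the 4 purified cells with reads of Gad1 the level reached at most 2929.6, whereas the lowest glia-cultured cell, number 4, had 6011. Gad2, the enzyme nearer the synapse, overlapped: it was at 1197, 2122, 9006, 14087 and 898 against 6765 to 25558 (median 13339.8). Purified cells 3 and 4 lay inside the glia-cultured range of Gad2 and cells 1, 2 and 5 lay below it.

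The vesicular transporter of GABA did not share the gap of Gad1. Slc32a1, which loads GABA into vesicles, was at 705, 462, 1357, 390.4 and 652 against 171 to 882 (median 709), a difference of 0.22. Erbb4, the neuregulin receptor of interneurons, was read in purified cell 2 alone, at 3041, and in 5 of 6 glia-cultured cells.

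Of 9 measured genes that divide interneurons into classes, 5 were higher in purified cells, against 10.98% of all measured genes, 4 were lower and 0 were within 2-fold. Their median difference of 2.32 rested on single cells. It was 0.14, 0.88 and 0.59 without purified cell 1, 2 or 4, 4.29 without purified cell 5, and 1.26 without glia-cultured cell 2, 3 or 6. Reln was at 4608, 10623, 10028, 6811 and 244 in purified cells and 0 to 2399 (median 171) in glia-cultured ones. Purified cells 1 to 4 lay above every glia-cultured cell, and purified cell 5 fell inside their range. That cell had 243977 for Sst, somatostatin, and 185668 for Npy, neuropeptide Y, whereas the other purified cells had at most 130.2 for Sst. Sst in glia-cultured cells ran from 0 to 49864, and Npy from 0 to 39192. Cck, cholecystokinin, and Cnr1, the cannabinoid receptor CB1, were both high in purified cells 1 and 2, at 19464 and 28143 for Cck and 38420.4 and 14967 for Cnr1. No glia-cultured cell had more than 187 for Cck, while glia-cultured cell 3 had 26228 for Cnr1. Kit, a receptor kinase found in some interneurons, was read in purified cells 1, 2 and 3, at 918, 5049 and 5.48, and at 0 in all glia-cultured cells. Penk, proenkephalin, was above 0 in purified cells 1, 2 and 4 and glia-cultured cells 1, 4 and 5. Pvalb, parvalbumin, was read in purified cell 2, at 18.99, and in glia-cultured cells 4 and 5, at 885 and 1138. Cells thus differed in these class markers within both groups, and the part of class in the other differences was not tested.

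Sodium channel genes showed a contrast between subunits. Of 8 measured genes 6 were lower and 0 higher, against 64.4% and 10.98% of all measured genes. Their median difference was -4.98. Scn1a, which encodes Nav1.1, was at 0, 0, 0, 10.3 and 1.87 in purified cells 1 to 5 and 1157 to 2266 (median 1633) in glia-cultured cells. The 2 purified cells with any reads of Scn1a were far under the lowest glia-cultured cell. Scn8a, which encodes Nav1.6, and Scn2b, the β2 subunit, were at 0 in all purified cells and read in 5 and 4 glia-cultured cells. Scn2a, which encodes the Nav1.2 of immature axons, was instead present in purified cells, at 4006, 5.42, 2358, 2551 and 4554, and overlapped with the 386 to 5095 (median 1773) of glia-cultured cells. Scn3a, a channel of embryonic neurons, was at 1832, 0, 241, 3674 and 5.60 against 9.98 to 302 (median 144) and had its highest values in purified cells 1 and 4. The OCM-treated cells had 0 to 2388 for Scn1a, with reads in 4 of 5 cells.

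Potassium channel genes were lower in 19 and higher in 3 of 28 measured members, shares near those of all measured genes. Kcnab1, Kcnip1 and Kcna1 led the low side and were at 0 in all purified cells. Kcnip1, a partner of the A-type channel, was at 0 to 2517 (median 1062) in glia-cultured cells, and Kcna1, which encodes Kv1.1 of axons, at 0 to 2783 (median 1261). Kcnc1, which encodes the Kv3.1 of fast-spiking cells, overlapped at 1567, 198, 0, 931 and 0 against 191 to 2384 (median 1161). Kcnip4 and Kcnd3, which belong to the A-type complex as well, were on the high side, with Kcnip4 at 0, 963, 1225, 1582 and 0 against reads in glia-cultured cell 3 alone. Kcnd3 was at 3115, 564, 1354, 0 and 353 against 0 to 669 (median 134). The members of one complex thus did not share a direction.

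Among calcium channels and pumps 11 of 16 were lower and 3 higher, against 64.4% and 10.98% of all measured genes. Their median difference was -3.002, but 1.03 over cells with a read for the 5 genes read in at least 3 cells of each group. Cacna1a, the P/Q-type channel of transmitter release, was at 1247, 2.71, 0, 0 and 0 against 0 to 1653 (median 892). Cacna1b, the N-type channel, went the other way, at 37.1, 441, 2517, 0 and 0 against reads in glia-cultured cell 5 alone, at 161. Cacna2d3, an auxiliary subunit, was read in purified cell 5 only and in 5 glia-cultured cells. Of the genes of the axon initial segment and node 10 of 12 were lower and 1 higher. Trim46, which bundles microtubules there, was read in purified cell 2 only, at 1029, and in 5 glia-cultured cells of up to 1576. Nrcam, an adhesion protein of that site, was read in all 11 cells, at 3649, 1529.8, 3866, 1462 and 1139 against 2269.5 to 18505 (median 4526). Ank3, its scaffold ankyrin G, had reads in 3 glia-cultured and 0 purified cells.

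**Figure D4:**
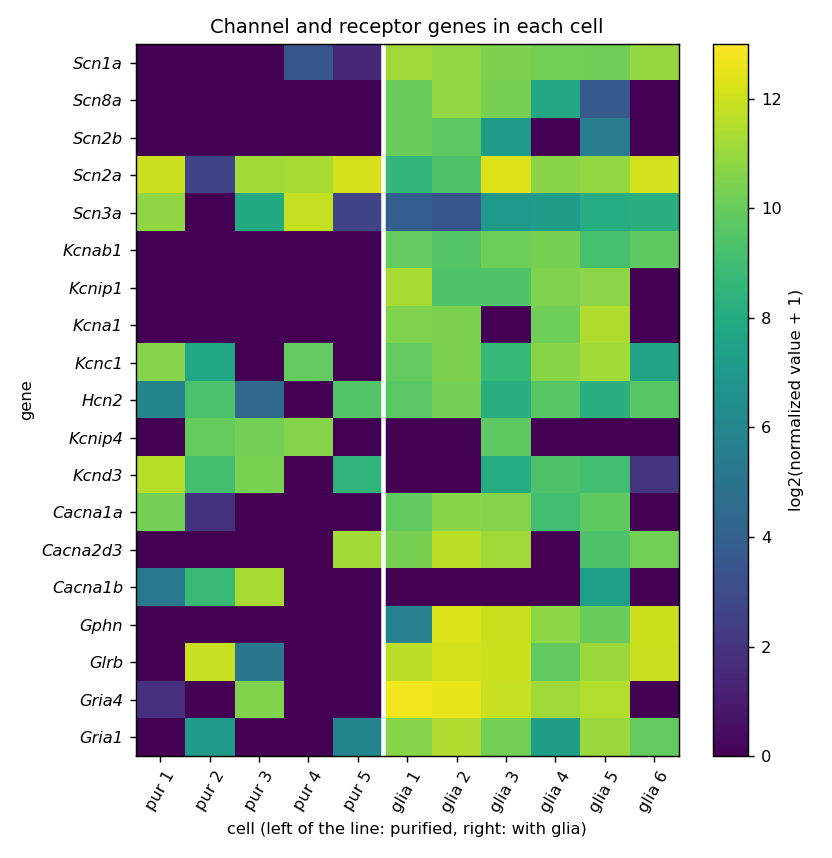
Level in each cell, as log2(normalized value + 1) on the colour scale, of channel and receptor genes (rows) in the 5 purified cells, left of the white line, and the 6 glia-cultured cells, right of it. Scn1a, Kcnab1 and Gphn are dark on the left and brighter on the right, Scn2a is bright in all cells but purified cell 2, and Cacna1b and Kcnip4 are brighter on the left.

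Receptors for GABA and glycine had the largest share of lower members among the lists with at least 5 measured. Of 15 measured genes 14 were lower and 0 higher, against 64.4% and 10.98% of all measured genes. Their median difference was -4.77. Of the 18 list members with values, 7 were at 0 in all purified cells. Any of those 7 that were measured passed the detection rule through glia-cultured cells alone, so their difference can only be below 0. Gphn, gephyrin, the scaffold that anchors these receptors at inhibitory synapses, was at 0 in all purified cells and 53.3 to 4966 (median 2903) in glia-cultured cells. Glrb, the glycine receptor β subunit that binds gephyrin, was at 0, 3886, 32.9, 0 and 0 against 918 to 4547 (median 3603). Gabra5 and Gabra2 were read in 1 and 3 purified cells and in 5 and 6 glia-cultured cells. Gabbr1 and Gabbr2, the subunits of the metabotropic GABA-B receptor, were read in 2 and 1 purified cells and in all 6 glia-cultured cells. Gabrb1 was within 2-fold, at 0, 1840.4, 5.48, 678 and 0 against 0 to 776 (median 39.2). Over the 5 receptors read in at least 3 cells of each group, the median difference over cells with a read was -0.62.

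Glutamate receptor genes were lower in 12 and higher in 3 of 17 measured members, against 64.4% and 10.98% of all measured genes. Gria1, an AMPA receptor subunit, was at 0, 139.7, 0, 0 and 57.8 in purified cells and 151 to 2837 (median 1417) in glia-cultured ones, without overlap. Gria4, the AMPA subunit typical of fast interneurons, was at 2.47, 0, 1489, 0 and 0 against 0 to 6684 (median 3377). Gria2, the subunit that keeps calcium out, overlapped at 1789, 4675, 2999, 0 and 798 against 2103 to 6732 (median 2708). Grin1, the obligatory NMDA subunit, was at 0, 2038, 10.97, 114 and 2702 against 495 to 6579.8 (median 2345). Grik2, a kainate receptor subunit, was highest in purified cell 4, at 2398, and read in 2 cells of each group.

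The release machinery was lower in 20 and higher in 0 of 26 measured genes, against 64.4% and 10.98% of all measured genes. For 6 of the 26 every purified cell lay below every glia-cultured cell, against 1.51% of all measured genes. Syt4, a synaptotagmin of dense-core and trafficking vesicles, was at 2.47, 0, 0, 0 and 0 against 398 to 4768 (median 2244). Nsf, the ATPase that takes fusion complexes apart, was at 0, 492, 776, 0 and 0 against 1290.2 to 3605 (median 2468). Vamp1, a vesicle fusion protein of fast synapses, was at 0, 0, 526, 0 and 1226 against 578 to 1784 (median 1340.1). Sv2a, a vesicle glycoprotein, and Rph3a, an effector of Rab3, separated as Syt4 and Nsf did. For Sv2a and Rph3a the highest purified cells were at 548 and 65.4 and the lowest glia-cultured cells at 1438 and 88.6. Other parts of the same machinery did not: Vamp2, the main vesicle fusion protein, was at 8011, 8192, 5327, 13865 and 12185 against 6256 to 19786 (median 14430.2), and Rab3a at 4430.2, 6274, 6421, 5949 and 13721 against 6810.3 to 18618 (median 8098). Syp, synaptophysin, was in between, at 3420.3, 2965, 4543, 3724 and 5814 against 5972 to 14173 (median 8223), and only just separated. The 7 release genes read in all 11 cells had a median difference of -0.95, against -0.18 for all such genes.

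Adhesion and scaffold genes of the synapse were lower in 13 of 21, a share near the 64.4% of all measured genes. Cntnap4, a neurexin relative of interneuron synapses, was read in purified cell 2 alone, at 2459, and at 2279 to 7018 (median 2994) in glia-cultured cells. Dlg3, the scaffold SAP102, was at 0 in all purified cells and 143 to 1718 (median 411) with glia. Lrrtm3 was at 0 in all purified cells and read in 5 glia-cultured cells. Nrxn3, a neurexin, was read in all 11 cells and overlapped, with a difference of -0.48. Igsf21, a partner of neurexin at inhibitory synapses, was the single member on the high side, at 1761, 5489, 1012, 0 and 0, and was at 0 in all glia-cultured cells.

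Cytoskeletal genes differed in both directions. Of 25 measured genes 10 were lower and 6 higher, the latter against 10.98% of all measured genes. Of the 6 higher genes, Tuba1a is given above and 4 follow. Gap43, a growth cone protein, was at 10168, 10358, 4740.1, 5948 and 3802 in purified cells and 0 to 6462 (median 2701) in glia-cultured ones. Tubb2b, a β-tubulin of immature neurons, was at 10717, 3619.8, 2892, 5409 and 4922 against 10.98 to 3531 (median 677), and only glia-cultured cell 6 reached the purified range. Stmn1 and Stmn2, stathmins that loosen microtubules, were at 14204, 12803, 7199, 33909.7 and 7201 and 11659, 22505, 27086, 42050.5 and 14192 in purified cells against 759.5 to 14440.1 (median 2317) and 3426 to 22495 (median 9241). For Stmn1 glia-cultured cell 6 was the highest of its group and lay above 4 of the 5 purified cells. The 3 lowest of the list are neurofilaments and a microtubule protein. Nefh, the heavy neurofilament of mature axons, was read in purified cell 5 alone, at 1386, and at 276 to 10714 (median 4818) with glia. Nefl, the light chain, was at 4774, 6029.8, 4351, 7195 and 272 against 6459 to 38514 (median 12352), and Map1a at 213, 2.71, 35.6, 1634 and 1112 against 1014 to 5972 (median 1548). Actb, Actg1, Stmn3 and Tubb3 were within 2-fold, with differences of 0.30, 0.25, 0.18 and 0.45.

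Motor genes of axonal transport were lower in 14 of 21, a share near the 64.4% of all measured genes, and higher in 1. Dync1h1, the heavy chain of dynein that carries cargo toward the cell body, was at 2.47, 0, 84.99, 144 and 805 against 1201 to 4525 (median 1803), without overlap. Kif5c, a neuronal kinesin that carries cargo outward, was the member on the high side, at 5148, 4252, 4879.9, 4936 and 6028 against 47.4 to 5252 (median 2148). Glia-cultured cell 3 had more Kif5c than 4 of the purified cells, so the groups overlapped. The light chains Dynll1 and Dynlrb1 differed by 0.33 and -0.09.

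**Figure D5:**
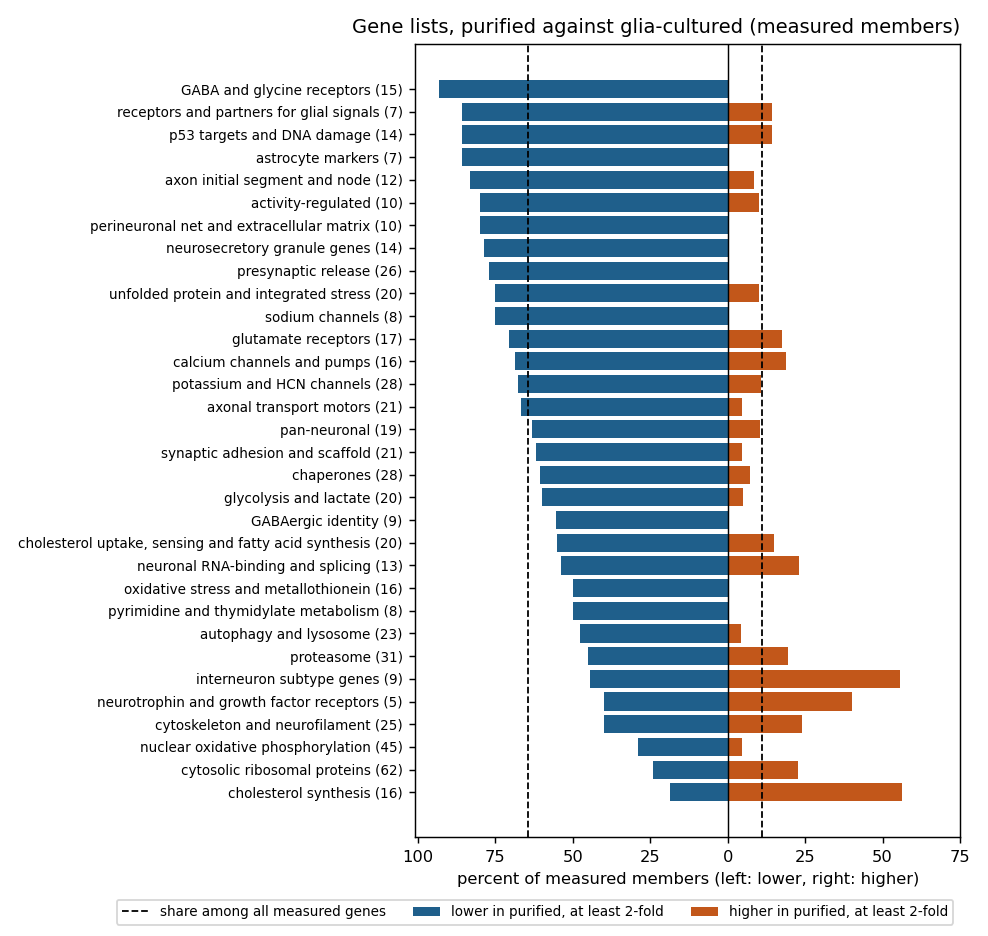
Percent of the measured members of each gene list (rows, with the number measured) that were at least 2-fold lower (blue, to the left) or higher (orange, to the right) in purified cells; dashed lines give the shares among all measured genes, 64.4% and 10.98%. GABA and glycine receptors extend furthest left, and cholesterol synthesis and interneuron subtype genes furthest right.

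Genes of the respiratory chain, the ribosome and the proteasome had median differences closer to 0 than the -2.13 of all measured genes. Their 36, 29 and 13 members read in all 11 cells had medians of -0.20, 0.74 and 0.44, against -0.18 for all such genes. For the respiratory chain that median was thus near the one of all genes read in every cell. Of 45 measured nuclear genes of the respiratory chain 30 were within 2-fold, 13 lower and 2 higher, with a median difference of -0.40. Cycs, cytochrome c, was at 5288, 1733, 3945, 946 and 4138 against 3516 to 11756 (median 7623), and Uqcrc1, a complex III core protein, at 7656, 3296, 2774, 2554 and 4369.6 against 7616 to 12887 (median 9177). Uqcrq of the same complex was on the high side, at 3805, 5478, 7679, 4973 and 6324 against 976 to 3821 (median 2663). Ribosomal protein genes had a median difference of 0.51, with 14 of 62 higher and 15 lower, and this sign turned to -0.09 with scaling to one upper quartile and to -0.23 among cells titled S. Rpl7 and Rpl14 were among the higher, at 2459, 1352, 1058, 1001 and 1582 and 3080.4, 3109.8, 1028, 2066 and 2109.7 in purified cells against 42.5 to 1142 (median 459) and 275 to 1775 (median 723). Proteasome genes had 14 of 31 lower, 6 higher and 11 within 2-fold, with a median difference of -0.46, and of 0.30 over cells with a read.

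Of 20 genes of glycolysis and lactate transport 12 were lower, a share near the 64.4% of all measured genes, 1 higher and 7 within 2-fold. For 3 of the 20 every purified cell lay below every glia-cultured cell, against 1.51% of all measured genes. The 10 members read in all cells had a median difference of -0.55, and 3 of them were lower, among them Eno2, given above. Gapdh, Aldoa and Ldhb, also read in all cells, differed by -0.25, -0.14 and -0.42. Slc16a1, the lactate transporter MCT1, was at 0 in all purified cells and at 0 to 1150.3 (median 666) in glia-cultured ones. Slc16a7, the neuronal lactate transporter MCT2, was at 0 in all purified cells as well and read in 3 glia-cultured cells. Slc2a3, the neuronal glucose transporter, was read in purified cell 2 alone, at 2443, and in 5 glia-cultured cells of up to 1639.7. Among chaperones 17 of 28 were lower, a share near the 64.4% of all measured genes, although the median difference over cells with a read was 0.17. The lowest was Hspa4l, a partner of heat-shock protein 70, at 1667, 4.07, 0, 0 and 1089 against 1729 to 7933 (median 4117).

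Cholesterol synthesis had the highest median difference of mean log2(value + 1), over all 11 cells, of the 33 gene lists with at least 3 measured members. That rank depended on the measure: interneuron subtype genes were higher for the ratio of group means, at 2.09 against 1.42. They were also higher over cells with a read, at 2.10 for 3 genes against 1.25. By the first measure, interneuron subtype genes ranked above cholesterol synthesis without glia-cultured cell 2, at 1.26 against 1.15, and without purified cell 5, at 4.29 against 3.38. Neurons make part of their cholesterol and, when grown with astrocytes, take up more of it in lipoproteins. Of 16 measured enzymes 9 were higher in purified cells, 3 lower and 4 within 2-fold, against 10.98% higher among all measured genes. The median difference was 2.67, and 1.25 over cells with a read for the 12 enzymes read in at least 3 cells of each group. Without glia-cultured cells 3 and 5 it was 4.31. Summed over the 18 enzymes in the table the level ran from 16969.95 to 44911 in purified cells, with a median of 29554. In glia-cultured cells it ran from 7389 to 32366, with a median of 8159, so the ranges overlapped through 1 cell. That cell, glia-cultured cell 3, had 32366, and the other glia-cultured cells lay between 7389 and 8758. The OCM-treated cells, also without glia, had 14135 to 44987.

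The enzymes are described in the order of the pathway. Hmgcs1, an early synthase, was lower, at 0, 0, 0, 1761 and 127 against 0 to 4849 (median 1068). Idi1, which isomerizes the isoprene unit, was at 2137, 1183, 1439, 3492 and 561 against 0 to 1712 (median 254). Fdft1, squalene synthase, was at 2909, 1066, 1395, 2349.5 and 1927 against 0 to 4032 (median 86.1), and was high in glia-cultured cell 3 while 3 others were at 0. Of the late enzymes that turn lanosterol into cholesterol, Cyp51 is given above. Msmo1, a methyl sterol oxidase, was at 7188, 1942, 13619.9, 3486 and 5737 against 0 to 4408 (median 1496). Nsdhl, which acts after it, was at 5193, 4413, 2506, 6147 and 27.98 against 0 to 1858 (median 1116), and purified cell 5 was low. Dhcr7, the last reductase of the pathway, was at 1878, 5139, 159, 3263 and 947 against 0 to 1632 (median 80.3). For Idi1 and Dhcr7 3 glia-cultured cells were at 0, and cells 3 and 4 lay within the purified range, as did a further glia-cultured cell for Dhcr7. All 5 purified cells had reads of Cyp51, Idi1, Fdft1, Dhcr7, Msmo1, Nsdhl and Acat2.

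The promoters of Cyp51, Idi1 and Dhcr7, of which each enzyme was read in every purified cell, are shown for the letters that promoters of sterol genes share. Of the 20 enzymes of the list, RefSeq promoters (build GRCr8, 250 bases before the start of the gene) were matched for 15. The motifs searched on both strands were GGGCGG, the GC box, CCAAT, the CCAAT box, TGACGT, the core of a cyclic AMP response element, CACGTG, an E-box, and ATCACNNCA, a form of the sterol response element. Matches may overlap one another and each promoter counts once per motif. Capitals mark matches of GGGCGG, of CCAAT or of TGACGT on either strand, and sequences read 5′ to 3′ in the direction of the gene.
Cyp51 promoter, chr4:30991443-30991692, plus strand: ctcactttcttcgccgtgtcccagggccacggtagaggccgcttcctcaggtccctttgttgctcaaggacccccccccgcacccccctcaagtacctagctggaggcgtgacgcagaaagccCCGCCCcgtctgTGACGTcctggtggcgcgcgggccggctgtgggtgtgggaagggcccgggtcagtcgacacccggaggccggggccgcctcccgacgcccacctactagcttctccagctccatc
Idi1 promoter, chr17:66547525-66547774, minus strand: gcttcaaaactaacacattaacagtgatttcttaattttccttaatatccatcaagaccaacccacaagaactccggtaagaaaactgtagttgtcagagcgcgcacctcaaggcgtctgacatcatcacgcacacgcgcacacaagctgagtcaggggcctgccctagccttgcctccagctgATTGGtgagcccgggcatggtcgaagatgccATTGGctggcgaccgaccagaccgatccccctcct
Dhcr7 promoter, chr1:208444184-208444433, plus strand: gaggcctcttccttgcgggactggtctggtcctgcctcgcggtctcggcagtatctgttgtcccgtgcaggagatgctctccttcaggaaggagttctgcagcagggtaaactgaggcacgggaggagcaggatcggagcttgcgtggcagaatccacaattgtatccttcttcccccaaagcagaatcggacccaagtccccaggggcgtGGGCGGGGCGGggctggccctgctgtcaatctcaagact
The GC box was found in 13 of the 15 promoters (86.7%) and in 32.4% of 27457 rat promoters of the same length. The CCAAT box was found in 12 of 15 (80%) and in 34.3% of all. TGACGT was in 2 of 15 against 7.25%, CACGTG in 1 of 15 against 5.79%, and ATCACNNCA in 0 of 15 against 2.51%. A match describes letters in this window only.

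Genes of cholesterol uptake and sensing differed from the enzymes. Of 20 measured members of the list, which holds fatty acid synthesis too, 11 were lower and 3 higher, against 64.4% and 10.98% of all measured genes. The median difference of -1.33 became 0.04 without glia-cultured cells 3 and 5. Vldlr, a lipoprotein receptor that also binds reelin, was at 0 in all purified cells and 0 to 4422 (median 2109) with glia. Insig2, which retains the sterol sensor in the endoplasmic reticulum, was at 0 in all purified cells and 0 to 1011 (median 347) with glia. Lrp1, another lipoprotein receptor, was read in purified cell 2 alone and in 5 glia-cultured cells. Idh1, which supplies NADPH for lipid synthesis, was at 0, 3899, 441, 1441 and 1655 against reads in glia-cultured cell 4 alone, at 437. Npc2, which exports cholesterol from lysosomes, was at 1183, 865, 1124, 1453 and 0 against 0 to 584 (median 182). Scd2, a fatty acid desaturase read in all cells, overlapped, at 973, 8057, 14686, 4948 and 2787 against 293 to 6054 (median 4197).

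Of the genes that respond to DNA damage and to unfolded proteins, most measured members were lower in purified cells, as were most measured genes. Antimitotic agents act on dividing cells, and p53 is the factor through which many cells answer DNA damage. Of 14 measured genes of the DNA damage list 12 were lower and 2 higher, against 64.4% and 10.98% of all measured genes. Only 1 of the 14 was read in at least 3 cells of each group, with a difference of 1.00 over cells with a read. An effect of the antimitotic agents on these genes was not tested. Cdkn1a, the p53 target p21, was at 0 in all purified cells and read in 3 glia-cultured cells, of up to 334. Mdm2, the inhibitor of p53, was on the high side through purified cells 3 and 4, at 4831 and 3179, and Ccng1 was at 0, 1347, 853, 2891 and 55.03 against 0 to 1315 (median 275). Sesn2, a stress-induced regulator of metabolism, was at 0 in all purified cells and read in 4 glia-cultured cells. Of the unfolded protein and integrated stress genes 15 of 20 were lower and 2 higher, against the same 64.4% and 10.98%. Canx, calnexin, was at 1372, 2342, 143, 0 and 1.87 against 2734 to 5226 (median 3628), while Atf4, the integrated stress factor, was at 6042, 2581, 6969, 25807 and 6313 against 1549.9 to 7226 (median 4441) with a high purified cell 4. Mt3, the neuronal metallothionein, was at 1257, 2059, 1267, 826 and 2694 against 1189.8 to 10377 (median 6198). In the lysosome and autophagy list, Grn, progranulin, was read in purified cell 5 alone, at 1104, and at 469 to 2272 (median 851) with glia, while Atp6v0c, a proton pump subunit, overlapped with a difference of 0.04.

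Genes of neuronal activity and of neuropeptide granules were lower in most members, as were most measured genes. Of 10 measured activity-regulated genes 8 were lower and 1 higher, against 64.4% and 10.98% of all measured genes. Only 3 of the 10 were read in at least 3 cells of each group. Scg2, a granin of dense-core granules, was at 0, 5.42, 5535, 12133 and 5470.1 in purified cells and 6262 to 123730.3 (median 20906) in glia-cultured ones, and purified cells 1 and 2 were at or near 0. Vgf, a granule protein induced by neurotrophins, was at 4.94, 3532, 1354, 487 and 4751 against 2684 to 8545 (median 5478). Fos, an immediate early gene, was read in purified cells 1, 2 and 5, at 19.8, 3007 and 131, and in 5 glia-cultured cells of up to 4286. Of the granule genes 11 of 14 were lower and 0 higher, against the same 64.4% and 10.98%. Chgb, another granin, was read in all cells, at 553, 4337, 784, 824 and 3737 against 2282 to 13481 (median 7787). Pcsk1, which cleaves prohormones, was read in purified cell 2 alone and in 5 glia-cultured cells, whereas Scg5, the chaperone of a related enzyme, had a difference of 0.00.

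Bcan and Ncan, brevican and neurocan of the perineuronal net, and Hapln4, which links them to hyaluronan, were at 0 in all purified cells and each read in 4 glia-cultured cells. Spock3, a matrix proteoglycan read in all cells, overlapped, at 34488, 30831, 6772, 11367 and 1690.00 against 5434 to 21382 (median 7944). Nova1, a splicing factor of inhibitory neurons, was read in purified cell 3 alone, at 5.48, and at 0.606 to 3060.4 (median 385) with glia. Celf4, an RNA-binding protein, was read in all cells and differed by -0.04. Pcna, the replication clamp that also serves repair, was at 0 in all purified cells and read in 5 glia-cultured cells, of up to 848, while Mki67, a marker of dividing cells, was above 0 in glia-cultured cell 5 alone, at 36.8.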

How the data were processed

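Per the labels' protocols, each neuron was recorded and aspirated through the patch electrode, its RNA was amplified (SMART-Seq v4), and Nextera XT libraries were read from both ends on a NextSeq500. The submitters' processing notes name the build rn6 and, as tools, DESeq2, STAR 2.4.0, SAMtools, Picard and FastQC. Not given in the sources used here are the counter, the annotation and the strandedness of counting. Molecular identifiers are not mentioned, so bounds cover counting error only, and overlapping antisense genes cannot be told apart. The authors deposited a never-negative signal per gene, normalized with DESeq2 as the table's own name states. In each cell 100% of values were within 0.0500 of a whole multiple of 1 step, so whole reads and each cell's depth could be recovered. A count test on them was not run, since it would take cells for replicates of a group that is 1 sample.

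Of 34976 rows, 18376 had no symbol, and 355 repeats of a symbol were left out, which kept the row with the highest mean. The difference of group means of log2(value + 1) was computed for genes above 0 in at least 3 of 11 cells, and understates the change of low genes. Named genes were the 12 with the widest gap between the groups per direction with a mean of at least 50, the 8 with the widest gap among genes above 0 in all cells, the 3 lowest and 3 highest of each list, and identity genes. Other list members named for their role, such as Gria2, Vamp2 and Rab3a, were chosen after their values were seen. Some genes that the rule names are not reported here. The members and the 38 lists were chosen with earlier results of these data known. The scripts were tested on simulated cells. Alternatives were the pseudocount (0.1, 10), the detection filter, scaling, the ratio of means, the median over cells, thinning, title letters and leaving out each cell; added after seeing the data were the mean over cells with a read and leaving out glia-cultured cells 3 and 5. Python 3.11.15, numpy 2.4.6, pandas 2.3.3 and matplotlib 3.10.9 were used.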

Additional observations from a re-analysis of the deposited data

Results flagged for a closer look

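In 5 of 63 groups of cells examined, 1 per gene and group, 1 cell lay far from the others by Dixon's ratio at its 95% critical value, which chance passes in about 1 group in 20. The genes were partly picked for wide gaps between the groups, so that rate is a guide only. Purified cell 1 had the lowest Cx3cl1, at 81.6, and the highest Prkar1b, at 5692. Purified cell 5, the cell rich in Sst and Npy, had the lowest Reln, at 244. Purified cell 2 had the lowest Scn2a, at 5.42, the other 4 purified cells being at 2358 or more. Glia-cultured cell 6 had the lowest Nme2, at 297.

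Rows outside the mitochondrial chromosome without a gene symbol, which no comparison used, held a mean of 16.4% of the values in purified cells, from 11.8% to 24.2%. In glia-cultured cells they held 11.7%, from 9.86% to 12.9%.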

How the results depend on the processing

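No paired analysis was possible because the numbers only name the cells and no test was run. The all-gene median of -2.13 kept its sign under the other settings tried, within -2.46 to -1.77 when any 1 cell was left out, except for the mean over cells with a read, which gave 0.0924, with 19.05% of genes lower, 20.1% higher and 0.482% with every purified cell above. Its size depended on the setting. It was -0.47 for the ratio of group means, -1.21 without cells titled P and -1.34 with a filter of 1 cell. Pseudocounts of 10 and 0.1 gave -1.28 and -2.91. Leaving out any 1 cell gave 61.4% to 69.2% lower, 9.07% to 14.4% higher, 1.96% to 2.73% with every purified cell below, 0.183% to 0.534% above, and a median of -0.20 to -0.078 for genes read in all cells. That median was 0.091 with one total, -0.78 with one upper quartile, -0.0094 for the ratio of group means and -0.041 for the median over cells. The ratio of means gave 39.4% lower and 17.1% higher. The shares of genes with every purified cell below and above were 0.954% and 0.1004% with a filter of 1 cell and 2.89% and 0.304% with 6 cells. The share above was 0.444% with one total and 0 with one upper quartile. Smaller groups overlap less readily: without cells titled P the shares below and above were 8.05% and 1.88%, among cells titled S, which leave 1 glia-cultured cell, 20.7% and 10.004%, and without glia-cultured cells 3 and 5 2.99% and 0.358%. The share lower by the 2-fold rule was 52.6%, 57.4% and 58.6% in the same order. The share higher was 25.3%, 21.5% and 17.99%, and the cause was not tested.

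Of list medians at least 2-fold from 0 with all cells, 12 of 634 recomputed values changed sign, and of those nearer 0, 27 of 143 did. Among the latter, leaving out 1 cell gave -0.47 to 0.35 for the cytoskeleton and -1.77 to 1.61 for neurotrophin and growth factor receptors. Those at least 2-fold from 0 that changed sign follow. Interneuron subtype genes were at -0.34 with a filter of 1 cell, and potassium channels at 2.07 among cells titled S. Cholesterol uptake and sensing was at 0.62 with 6 cells, 0.96 without cells titled P, 0.95 among cells titled S, 0.85 over cells with a read and 0.041 without glia-cultured cells 3 and 5. Pyrimidine metabolism was at 0.12 for the ratio of means. Over cells with a read, calcium channels were at 1.03, chaperones at 0.17, oxidative stress at 0.19 and RNA binding at 0.61. Of named genes at least 2-fold from 0, 10 of 2937 recomputed values changed sign, and of those nearer 0, 74 of 528 did. Among the latter, leaving out 1 cell gave -1.37 to 0.99 for Scn2a, -0.96 to 2.00 for Scn3a and -1.10 to 1.61 for Gabrb1. Of the former, Sst gave 1.99 and Npy 2.09 for the ratio of means. Among cells titled S, Sst gave 2.21, Cacna1a 3.04, Gria4 3.08, Hmgcs1 2.70, Mt3 0.11 and Pvalb 1.08. Without cells titled P, Pvalb gave 1.08, and without glia-cultured cells 3 and 5 Npy gave 0.76. The cause was not tested. Purified cells had the lower depth, and a gene at 0 there may lie under the limit that 3 reads over the group set.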
